A study of Mus musculus with 11 samples.

Results

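The genes described here are the 98 rows of the deposited count files whose mouse symbol is Zfp followed by a number of 3 digits that starts with 7, 8 or 9, out of 24421 rows in all. They were chosen by name alone, by a rule without measured values, but with earlier results of these data known. A further 267 rows with other Zfp symbols are the rows most like them. The study sequenced RNA from the hippocampus of young adult mice, sampled at 14 to 18 weeks of age. The PM group is made of 6 libraries from offspring whose mothers were given particulate matter (PM, 200 µg per kg) through the nose on gestational days 9, 12 and 15, with birth on day 21. The vehicle group is made of 5 libraries from offspring of the normal saline arm. Replicates 1 to 3 of each group form the first set of the deposit, and PM replicates 4 to 6 with vehicle replicates 4 and 5 form the second set, since library numbers restart there and a treatment protocol is given for that set alone. Strain, sex and number of dams are not stated in the labels, and separate animals or litters are not named for the libraries. The p-values therefore speak of the spread among these samples, part of which may be technical.

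Zinc finger genes of this block encode proteins with tandem C2H2 fingers, short folds that hold a zinc ion between a pair of cysteines and a pair of histidines and that read DNA bases. Many of them also carry an N-terminal KRAB box, which recruits the co-repressor TRIM28 (KAP1) and, through it, the histone methyltransferase SETDB1, HP1 proteins and histone deacetylases. KRAB zinc finger proteins are best known for silencing endogenous retroviruses and other transposable elements, and their genes arose by tandem duplication and sit in clusters on several chromosomes. In the adult brain most have no assigned function.

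All 98 genes were found by symbol in the GENCODE M21 annotation of GRCm38 (the assembly called mm10 by the submitters), on 17 chromosomes. A search of their annotated coding sequences found a KRAB-like motif in 72 genes and none in 24, and 2 rows (Zfp783 and Zfp939) have no annotated coding sequence. The search used a letter pattern near the N-terminus and was not checked against known KRAB boxes. A gene without the motif may therefore still carry a KRAB box, and KRAB-type below means that the motif was found. The number of C2H2 fingers ran from 0 to 23 with a median of 11. In 12 places at least 3 of the genes lay on 1 chromosome with neighbours within 1 Mb, and these clusters held 58 of the 98 genes. Shared sequence limits some counts. Of the 98 genes, 52 shared no stretch of 100 bases with another annotated gene, 16 shared at least 10% of their transcript, and 5 shared most of it (Zfp708, Zfp781, Zfp784, Zfp935 and Zfp960). In 8 of the 16 the gene that shared most has exons overlapping theirs at the same place (Zfp704, Zfp708, Zfp738, Zfp784, Zfp865, Zfp866, Zfp935 and Zfp963), and in the other 8 that gene's exons do not overlap theirs. Exons of 19 genes overlap a gene on the opposite strand, among them Zfp703, Zfp704, Zfp706, Zfp712, Zfp738, Zfp740, Zfp748, Zfp775, Zfp799, Zfp800, Zfp866 and Zfp961, and the sources at hand do not give the strand setting of the counting, so the reads of both partners cannot be told apart.

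The RefSeq promoter table (GRCm38.p6), which gives 250 bases before to 50 bases after annotated gene starts, held a window for 86 of the 98 genes. For a gene with more than 1 window the first listed was used, here and in the shares below. Windows of 5 genes are printed 5′ to 3′ on the gene's strand. Zfp740, Zfp932, Zfp800 and Zfp809 each have 2 windows in that table, so a further start of each is not shown. These genes passed an adjusted p of 0.05 in the same direction in both sets and also after a length and GC trend was removed. Other genes of the block did so too, and the 5 were chosen after their values were seen. Zfp740, Zfp771 and Zfp932 were higher in PM, and Zfp800 and Zfp809 were lower. Their windows lie at chr15:102203750-102204049 on the plus strand, chr7:127244276-127244575 plus, chr5:109996260-109996559 plus, chr6:28397956-28398255 minus and chr9:22225453-22225752 plus. Capitals mark matches on either strand to a few promoter motifs. These were GGGCGG, the GC box bound by Sp and KLF factors, and the ETS factor letters CCGGAA. YY1 was searched as AAGATGG, the cyclic AMP response element (CRE) as TGACGTCA and the TATA box as TATAAA, and NRF1 by its palindromic motif. Adjacent or overlapping matches run together.

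Zfp740: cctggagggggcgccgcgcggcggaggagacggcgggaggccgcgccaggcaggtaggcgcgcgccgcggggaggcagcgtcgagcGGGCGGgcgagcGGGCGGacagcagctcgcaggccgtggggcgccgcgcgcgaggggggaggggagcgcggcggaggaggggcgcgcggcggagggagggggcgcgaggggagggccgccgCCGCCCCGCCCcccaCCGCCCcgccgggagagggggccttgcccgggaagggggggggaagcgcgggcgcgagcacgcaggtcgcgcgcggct
Zfp771: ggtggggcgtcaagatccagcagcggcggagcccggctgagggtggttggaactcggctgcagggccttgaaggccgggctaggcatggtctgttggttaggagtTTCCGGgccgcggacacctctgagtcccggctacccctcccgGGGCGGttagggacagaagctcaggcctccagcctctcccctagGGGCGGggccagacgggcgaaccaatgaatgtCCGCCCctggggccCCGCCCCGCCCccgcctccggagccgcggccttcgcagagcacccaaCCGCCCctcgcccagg
Zfp932: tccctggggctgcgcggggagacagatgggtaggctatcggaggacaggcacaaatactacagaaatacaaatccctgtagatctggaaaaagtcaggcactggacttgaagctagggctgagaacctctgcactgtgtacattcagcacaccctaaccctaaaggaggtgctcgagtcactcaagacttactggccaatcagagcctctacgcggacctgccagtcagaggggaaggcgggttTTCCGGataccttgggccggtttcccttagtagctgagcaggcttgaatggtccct
Zfp800: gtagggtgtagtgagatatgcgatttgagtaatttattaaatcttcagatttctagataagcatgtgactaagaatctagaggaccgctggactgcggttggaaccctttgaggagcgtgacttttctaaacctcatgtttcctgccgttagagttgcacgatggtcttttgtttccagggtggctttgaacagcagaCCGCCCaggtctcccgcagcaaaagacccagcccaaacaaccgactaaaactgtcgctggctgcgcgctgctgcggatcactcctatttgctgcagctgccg
Zfp809: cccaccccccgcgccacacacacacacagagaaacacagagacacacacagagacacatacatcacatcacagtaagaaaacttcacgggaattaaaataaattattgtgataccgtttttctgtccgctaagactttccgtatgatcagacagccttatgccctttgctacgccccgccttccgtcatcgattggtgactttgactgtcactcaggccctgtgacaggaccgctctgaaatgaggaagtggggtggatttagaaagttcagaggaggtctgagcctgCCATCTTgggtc

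Zfp740 and Zfp771 carried 5 and 6 GC boxes in windows of 85.3% and 71.7% GC, while Zfp800 carried 1 and Zfp932 and Zfp809 had no such letters in this window. A GC box was present in 58.8% of the windows of 17 genes called higher and in 31.0% of those of 29 genes called lower. The share was 50% in 34 genes that did not pass, 43.0% in the 86 windows and 35.9% in 27025 windows of all genes in the table. The median number of CpG dinucleotides per window was 14 in genes called higher, 11.5 in genes that did not pass, 10 in genes called lower and 7 over the whole table. The ETS letters stood in 30.2% of the windows of these genes and in 15.2% of all windows, and the TATA letters in 3.49% and 14.2%. The YY1 letters were found in 9.30%, the NRF1 letters in 4.65% and the CRE letters in 1.16% of the 86 windows, against 6.48%, 4.78% and 1.88% of all windows. These shares are descriptions of the letters, and no test was made on them.

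The libraries of the 2 groups differed in composition. Counts assigned to genes ran from 10938521 to 17763893 in PM libraries and from 6012116 to 12496651 in vehicle libraries. Reads assigned to no annotated feature made up 18.8% to 34.0% of counts in PM libraries and 60.9% to 61.99% in vehicle libraries, and the ribosomal precursor Rn45s took 4.01% to 17.04% of gene counts in PM libraries and 0.792% to 2.17% in vehicle libraries. Levels are given in CPM, in which counts are divided by the TMM-adjusted library size. All 5 hippocampal neuron markers reported here were detected, with a summed level of 500.2 to 654 CPM in PM libraries and 925 to 1109 CPM in vehicle libraries; Bcl11b, Neurod6 and Prox1 were lower and C1ql2 was higher. Of 6 general neuron markers 2 were higher (Rbfox3 and Slc17a7) and 2 lower (Gad2 and Syt1), with sums of 5140.1 to 6480 CPM in PM and 5763 to 6480 CPM in vehicle libraries. Of 4 astrocyte markers Aldh1l1 and Gfap were higher and Aqp4 lower (835 to 1562 CPM summed in PM, 936 to 1008 CPM in vehicle), and of 3 endothelial markers 2 were higher (84.4 to 152.6 CPM in PM, 74.7 to 87.8 CPM in vehicle). Of 4 oligodendrocyte markers 3 were higher (3598 to 8246 CPM summed in PM, 3457 to 4394 CPM in vehicle), as were 3 of 4 microglia markers (129.8 to 199.5 CPM in PM, 92.8 to 112.7 CPM in vehicle). Choroid plexus markers spanned 30.1 to 2463 CPM in PM libraries and 65.8 to 1207 CPM in vehicle libraries, with Aqp1 at 0 in some. Pituitary markers were low throughout (2.45 to 20.7 CPM in PM, 0.654 to 1.35 CPM in vehicle), with Gh and Prl at 0 in some libraries; both pituitary markers tested, Gh and Pomc, were higher. The part of library composition and of cell makeup in the results on zinc finger genes was not tested, and in bulk tissue fewer cells of a type and less RNA per cell cannot be told apart.

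In PM hippocampus 34 zinc finger genes of the block were lower and 19 higher than in vehicle hippocampus. Of the 98 genes, 92 had enough counts to be tested, and these calls were made at an adjusted p under 0.05 (edgeR quasi-likelihood test with the set as covariate, Benjamini-Hochberg adjustment over 14982 genes), while 39 did not pass. The background in the same comparison was large, with 36.4% of all tested genes called lower and 32.7% called higher. The 34 genes called lower are 36.96% of the 92, close to that background, and the 19 called higher are 20.7%, below it. The median log2 fold change (PM over vehicle) was -0.15 over the 92 genes, against -0.04 over all tested genes. Among 251 tested rows with other Zfp symbols, 124 were lower and 44 higher, with a median of -0.30. More than 2-fold changes were called in 13 genes that were lower and 6 that were higher, against 17.1% and 11.6% of all tested genes. In 27 of the 92 genes no PM library reached the lowest vehicle library and in 15 each PM library exceeded the highest vehicle library, against 28.1% and 24.3% of all tested genes, and in 50 the groups overlapped. Summed over the 98 genes, the level was 1744, 1828 and 1852 CPM as the lowest, median and highest of the PM libraries and 2225, 2242 and 2292 CPM as those of the vehicle libraries, so the sums did not overlap. The 5 genes with the largest falls in mean CPM were Zfp871, Zfp704, Zfp827, Zfp831 and Zfp950. With a length and GC trend removed, as described below, 4 of them were not lower past the threshold. They were picked by these same values, so leaving them out had to narrow the gap. Summed over the other 93 genes, the level was 1449.8, 1489.6 and 1584 CPM as the lowest, median and highest of the PM libraries and 1483, 1498 and 1519 CPM as those of the vehicle libraries, which overlap.

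The split between directions depended on how transcript length and GC content were treated. Both are those of each gene's longest annotated transcript, here and below. Which transcripts the hippocampus expresses was not examined. When a smooth trend of counts with length and GC was removed in each library, 35 of the 92 genes were higher and 22 lower, with a median of 0.12, against 35.5% of genes called higher, 28.6% called lower and a median of 0.06 over 14847 genes. Of the 19 genes higher in the deposited counts 17 stayed higher, and of the 34 lower 19 stayed lower, 11 no longer passed and 4 (Zfp704, Zfp711, Zfp738 and Zfp945) were called higher. Another 17 genes that had not passed were called after the trend was removed, 14 higher and 3 lower. Genes that held their direction past the threshold under this and each other alternative fit and in each set numbered 14 higher and 14 lower. The same count was not made over all tested genes, so no background stands beside it.

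**Figure D1:**
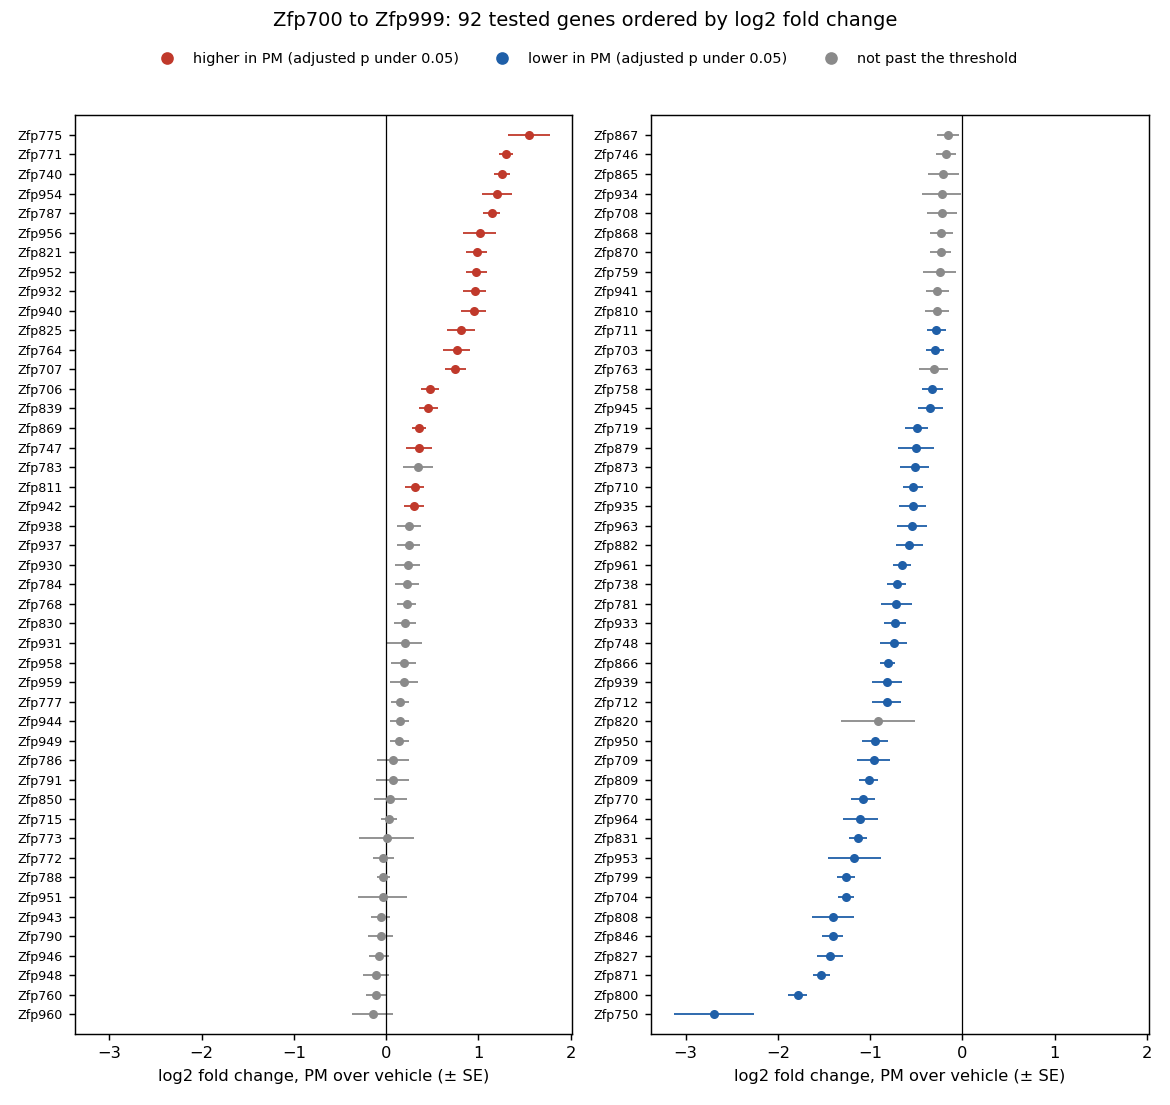
Log2 fold change of PM over vehicle with its standard error for the 92 tested zinc finger genes, ordered from the highest at the top left to the lowest at the bottom right; red marks the 19 genes higher in PM, blue the 34 lower and grey the 39 that did not pass an adjusted p of 0.05. The values run from 1.55 for Zfp775 to -2.70 for Zfp750, a gene of low level.

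The 12 largest rises, among genes of at least 1 CPM on average and with the same sign in both sets, were those of Zfp775, Zfp771, Zfp740, Zfp954, Zfp787, Zfp956, Zfp821, Zfp952, Zfp932, Zfp940, Zfp825 and Zfp764, with log2 fold changes from 1.55 to 0.76. Each of the 12 also passed in each set and after the trend was removed. In this and the following accounts the 3 CPM values of PM libraries are the lowest, median and highest of 6, the 5 values of vehicle libraries are those of replicates 1 to 5 in that order, and a value given as log2 is the fold change of PM over vehicle. Zfp775 had 5.94, 9.01 and 11.96 CPM in PM libraries, against 3.17, 1.81, 3.16, 2.94 and 4.29 CPM in vehicle libraries. Zfp771 had 43.2, 45.5 and 50.9 CPM in PM libraries, against 18.5, 19.5, 18.5, 18.1 and 18.7 CPM in vehicle libraries. Zfp740 had 72.6, 73.02 and 83.1 CPM in PM libraries, against 27.96, 35.9, 30.004, 33.02 and 30.7 CPM in vehicle libraries. The PM libraries lay above the vehicle libraries for all 3 genes, with the tightest grouping for Zfp771. Zfp775 (chr6:48602063-48623227), with 11 fingers and no KRAB-like motif, was higher, at log2 1.55 ± 0.22 (SE, adjusted p = 3.28e-05). Zfp771 (chr7:127244274-127254803), a short transcript of 1484 bases with 8 fingers and the highest GC content of the tested genes, was higher, at log2 1.30 ± 0.08 (SE, adjusted p = 9.63e-09), and at log2 0.69 once the trend was removed, a smaller value. Zfp740 (chr15:102203249-102215606), with 2 fingers found, was higher, at log2 1.26 ± 0.08 (SE, adjusted p = 2.74e-08) and at log2 1.35 without the trend.

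Zfp954 had 9.83, 10.8 and 14.8 CPM in PM libraries, against 4.91, 4.53, 3.796, 6.05 and 5.93 CPM in vehicle libraries. Zfp787 had 16.6, 18.2 and 19.8 CPM in PM libraries, against 8.87, 7.33, 7.77, 8.5 and 8.57 CPM in vehicle libraries. Zfp821 had 33.2, 41.5 and 54.6 CPM in PM libraries, against 21.2, 19.7, 21.5, 21.7 and 19.4 CPM in vehicle libraries. In each of these the PM libraries again stood clear of the vehicle libraries. Zfp954 (chr7:7114690-7121488) was higher, at log2 1.20 ± 0.16 (SE, adjusted p = 1.68e-05), Zfp787 (chr7:6131491-6155997) at log2 1.14 ± 0.10 (SE, adjusted p = 1.98e-07) and Zfp821 (chr8:109705546-109724932) at log2 0.98 ± 0.12 (SE, adjusted p = 6.35e-06). Zfp952 had 16.8, 20.5 and 22.3 CPM in PM libraries, against 9.899, 12.2, 8.495, 11.6 and 9.12 CPM in vehicle libraries. Zfp940 had 13.8, 15.7 and 19 CPM in PM libraries, against 8.39, 10.05, 9.31, 6.87 and 7.25 CPM in vehicle libraries. The KRAB-type genes Zfp952 (chr17:32993129-33005457) and Zfp940 (chr7:29833620-29853669) were higher, at log2 0.98 ± 0.12 (SE, adjusted p = 6.54e-06) and log2 0.95 ± 0.14 (SE, adjusted p = 2.96e-05), with no overlap of the groups. Zfp825 (chr13:74480054-74493992), which shares 10.2% of its transcript with Gm46430, had 4.498, 5.62 and 6.41 CPM in PM libraries, against 2.61, 2.99, 2.26, 4.09 and 3.96 CPM in vehicle libraries. Zfp764 (chr7:127403668-127406822) had 3.65, 4.23 and 4.97 CPM in PM libraries, against 2.22, 2.17, 2.53, 2.45 and 3.08 CPM in vehicle libraries. These last rises were log2 0.81 ± 0.15 (SE, adjusted p = 3.76e-04) for Zfp825 and log2 0.76 ± 0.15 (SE, adjusted p = 3.91e-04) for Zfp764, and neither gene's groups overlapped. Zfp764 stood at log2 0.49 with the trend removed.

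The 12 largest falls by the same rule were those of Zfp800, Zfp871, Zfp827, Zfp846, Zfp808, Zfp704, Zfp799, Zfp953, Zfp831, Zfp964, Zfp770 and Zfp809, with log2 fold changes from -1.78 to -1.02, and in each of them the groups were separate, with PM below. Zfp800 had 7.06, 9.35 and 11.2 CPM in PM libraries, against 31.04, 32.04, 35.7, 31.5 and 31.6 CPM in vehicle libraries. Zfp799 had 22.9, 24.5 and 29.5 CPM in PM libraries, against 53.3, 67.2, 52.96, 61.6 and 66.6 CPM in vehicle libraries. Zfp770 had 15.4, 21.2 and 28.6 CPM in PM libraries, against 46.3, 44.3, 46.99, 45.3 and 47.7 CPM in vehicle libraries. Zfp800 (chr6:28239927-28398005), whose human counterpart ZNF800 is known as a repressor in the endocrine lineage of the gut, showed the largest fold change of the 3. It was lower, at log2 -1.78 ± 0.10 (SE, adjusted p = 8.47e-09), and without the trend it stood at log2 -1.26 (adjusted p = 5.59e-08). Zfp799 (chr17:32815449-32830261), a KRAB-type gene with 16 fingers, was lower, at log2 -1.26 ± 0.10 (SE, adjusted p = 1.30e-07). Zfp770 (chr2:114193461-114201469), with 10 fingers and no KRAB-like motif, was lower, at log2 -1.08 ± 0.13 (SE, adjusted p = 5.79e-06). The corresponding values with the trend removed were log2 -0.37 for Zfp799 and log2 -0.56 for Zfp770, so both falls were smaller there and both still passed.

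The 12 falls included those of 3 KRAB-type genes of low level. Of the 15 tested KRAB-type genes under 5 CPM on average, a bound chosen after values were seen, 6 were lower, 2 (Zfp764 and Zfp825) were higher and 7 did not pass. The background over all tested genes was 36.4% lower and 32.7% higher. Zfp808 had 1.03, 1.25 and 1.93 CPM in PM libraries, against 2.93, 3.53, 3.796, 2.29 and 4.83 CPM in vehicle libraries. Zfp964 had 1.43, 1.64 and 1.89 CPM in PM libraries, against 3.41, 4.53, 3.43, 3.92 and 2.64 CPM in vehicle libraries. Zfp953 had 0.742, 1.48 and 2.42 CPM in PM libraries, against 2.77, 3.89, 2.53, 4.25 and 3.63 CPM in vehicle libraries. At these levels a library's limit for a count of 0 (3 counts) is 0.177 to 0.266 CPM in PM libraries and 0.238 to 0.490 CPM in vehicle libraries, a limit on counting error only, and each value stood above it. Zfp808 (chr13:62129886-62236144), which shares 14.6% of its transcript with its neighbour Zfp934, was lower, at log2 -1.40 ± 0.23 (SE, adjusted p = 1.01e-04). Zfp964 (chr8:69654479-69666982) was lower, at log2 -1.11 ± 0.19 (SE, adjusted p = 1.58e-04) and Zfp953 (chr13:67339306-67360605) at log2 -1.17 ± 0.29 (SE, adjusted p = 0.00259). Zfp964 stood at log2 -0.66 with the trend removed. The call for Zfp953 ended when the trend was removed, at log2 -0.52 (adjusted p = 0.0986), and in the first set taken alone, at log2 -0.68 (adjusted p = 0.0532).

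For 4 genes with long transcripts the fall depended on the trend. Zfp871 had 86.7, 97.9 and 126 CPM in PM libraries, against 281, 309, 281, 280.2 and 312 CPM in vehicle libraries. Zfp846 had 9.05, 10.01 and 13.9 CPM in PM libraries, against 28.5, 29.2, 28.5, 29.6 and 25.4 CPM in vehicle libraries. Zfp704 had 54.8, 66.97 and 77.3 CPM in PM libraries, against 166, 159, 171, 167 and 146 CPM in vehicle libraries. The groups stood far apart in each. Zfp871 (chr17:32765496-32788287, a transcript of 10851 bases) was lower, at log2 -1.53 ± 0.09 (SE, adjusted p = 1.14e-08) and had a log2 fold change of 0.01 with the trend removed. Zfp846 (chr9:20581291-20605409, 12974 bases) was lower, at log2 -1.40 ± 0.11 (SE, adjusted p = 1.57e-07) and stood at log2 0.25 (adjusted p = 0.0873) with the trend removed. Zfp831 had 35.7, 41.9 and 50.7 CPM in PM libraries, against 94.6, 94.1, 95.3, 96.3 and 86.04 CPM in vehicle libraries. The gene Zfp831 (chr2:174643534-174710832, 9807 bases), again with no overlap, was lower, at log2 -1.13 ± 0.10 (SE, adjusted p = 2.10e-07) and stood at log2 -0.10 (adjusted p = 0.209) with the trend removed. Zfp704 (chr3:9427020-9610085, 13834 bases, the longest of the tested genes) was lower, at log2 -1.26 ± 0.09 (SE, adjusted p = 3.08e-08) in the deposited counts and higher, at log2 0.23 (adjusted p = 0.0373), with the trend removed.

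**Figure D2:**
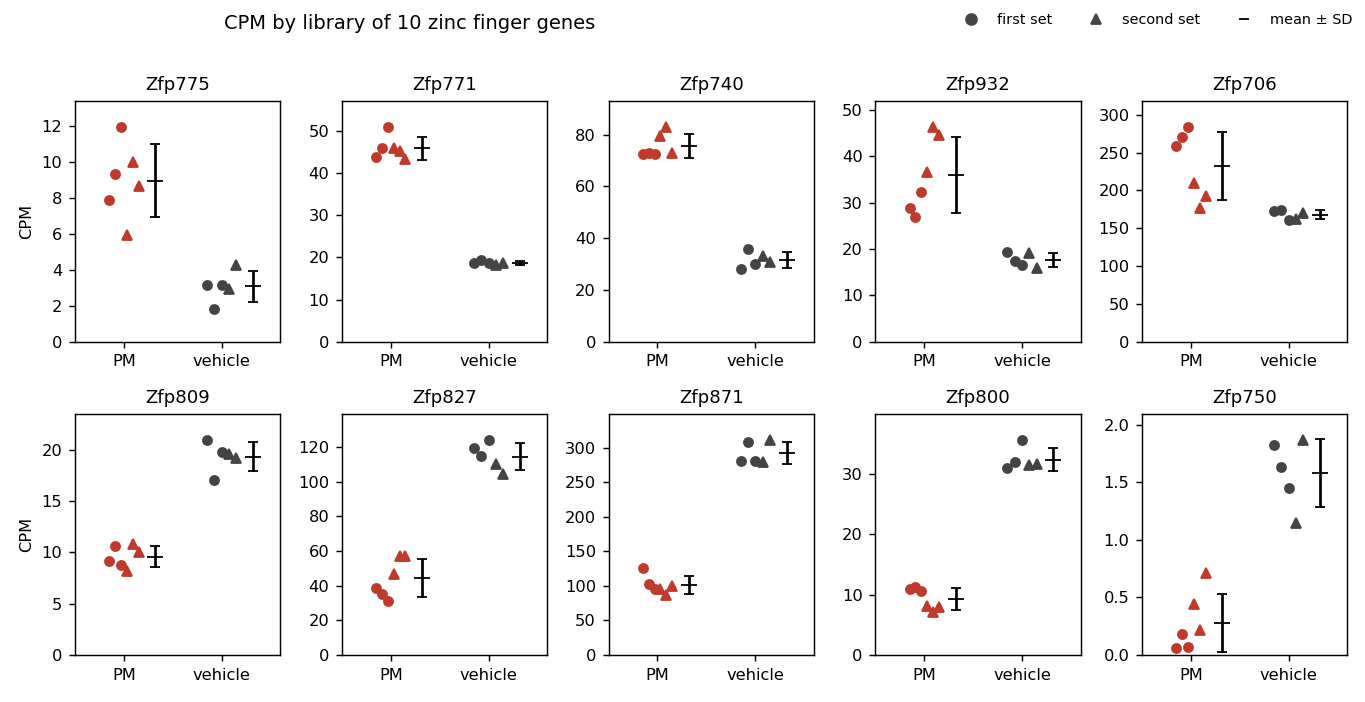
CPM of 10 zinc finger genes in each library, PM on the left and vehicle on the right of each panel, circles for the first set and triangles for the second, with the mean and SD of each group beside the points. The PM libraries lie above the vehicle libraries in the first 5 genes (Zfp775, Zfp771, Zfp740, Zfp932 and Zfp706) and below them in the other 5 (Zfp809, Zfp827, Zfp871, Zfp800 and Zfp750).

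Genes with an assigned function changed in both directions. Zfp809 (chr9:22225714-22243354) is a KRAB zinc finger protein that silences murine leukaemia virus and related endogenous retroviruses by binding the primer-binding site for proline tRNA. Zfp809 had 8.16, 9.56 and 10.8 CPM in PM libraries, against 20.99, 17.1, 19.8, 19.6 and 19.2 CPM in vehicle libraries. It was lower, at log2 -1.02 ± 0.10 (SE, adjusted p = 1.38e-06), with log2 -1.02 in the first set, -1.01 in the second, and -1.07 with the trend removed. The groups did not overlap, and the value hardly moved between those fits. Zfp932 (chr5:109996521-110010411), another KRAB protein that binds endogenous retroviruses, changed in the opposite direction. Zfp932 had 26.9, 34.4 and 46.4 CPM in PM libraries, against 19.4, 17.4, 16.6, 19.1 and 15.8 CPM in vehicle libraries. Its rise was log2 0.96 ± 0.13 (SE, adjusted p = 1.55e-05), with no overlap. However, 22.1% of its transcript is shared with its close relative Gm15446. Reads that aligned to more than 1 place are outside the gene counts, so the level of each of these genes is uncertain. The KRAB gene Zfp819, known for repressing retrotransposons, had 10 counts over all PM libraries and 9 over all vehicle libraries and was not tested.

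Zfp827 (chr8:79028437-79193766), whose human counterpart recruits the NuRD complex to telomeres, had 30.9, 42.8 and 56.8 CPM in PM libraries, against 119, 115, 124, 109.8 and 104 CPM in vehicle libraries. It was lower, at log2 -1.44 ± 0.14 (SE, adjusted p = 6.69e-07) with no overlap, and stood at log2 -0.59 with the trend removed. Zfp706 (chr15:36997027-37007773), a small zinc finger protein studied in the self-renewal of mouse embryonic stem cells, had 177, 234 and 284 CPM in PM libraries, against 173, 174, 162, 162 and 169.8 CPM in vehicle libraries. Every PM library was above every vehicle library, and the rise was log2 0.47 ± 0.09 (SE, adjusted p = 5.40e-04); in the second set alone it did not pass, at log2 0.22 (adjusted p = 0.0621), and with the trend removed it stood at log2 0.95. Zfp750 (chr11:121510978-121519333), a factor of epidermal differentiation, stood near the detection limit. Zfp750 had 0.0608, 0.198 and 0.708 CPM in PM libraries, against 1.82, 1.63, 1.45, 1.14 and 1.87 CPM in vehicle libraries. It was lower, at log2 -2.70 ± 0.43 (SE, adjusted p = 8.36e-05), but its PM values included levels under the limit for a count of 0.

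Smaller differences were seen in 2 further genes. Zfp703 (chr8:26977325-26981461), a co-repressor of the NET family, had 19.4, 21.8 and 27.8 CPM in PM libraries, against 28.6, 26.6, 29.1, 26.2 and 28.7 CPM in vehicle libraries, with overlap. The difference was log2 -0.30 ± 0.10 (SE, adjusted p = 0.0153), and it did not pass in the second set (log2 -0.20), without PM replicate 6 (-0.23) or without the filter on low counts (-0.20), while with the trend removed it stood at log2 -0.78. Zfp711 (chrX:112600526-112635070), on the X chromosome, is the counterpart of human ZNF711, a gene of X-linked intellectual disability whose protein works with the histone demethylase PHF8. Zfp711 had 11.8, 12.5 and 14.4 CPM in PM libraries, against 14.97, 16.7, 13.3, 16.2 and 17.3 CPM in vehicle libraries. The groups overlapped, and the difference of log2 -0.28 ± 0.10 (SE, adjusted p = 0.0273) turned to log2 0.24 (adjusted p = 0.029) with the trend removed. It no longer passed in the first set alone (log2 -0.15), with RLE size factors, with DESeq2 or without the filter on low counts, or when vehicle replicate 2, 4 or 5 or PM replicate 2, 5 or 6 was left out.

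Zfp746 (PARIS), Zfp830 and Zfp708 did not pass over both sets. Zfp746 (chr6:48062395-48086593), a substrate of parkin that represses PGC-1α, had 23.2, 28.3 and 33.5 CPM in PM libraries, against 31.1, 29.1, 34.6, 33.5 and 27.6 CPM in vehicle libraries. It stood at log2 -0.18 ± 0.11 (SE, adjusted p = 0.153), and it passed as lower, at log2 -0.28, without vehicle replicate 5 and, at log2 -0.49, with the trend removed. In the first set alone Zfp746 was lower, at log2 -0.40 (adjusted p = 0.00286), and in the second it did not pass, at log2 0.11. Zfp830 (chr11:82764345-82765935), needed in early mouse embryos, had 10.3, 11.6 and 13.6 CPM in PM libraries, against 9.42, 9.14, 10.8, 10.8 and 11.9 CPM in vehicle libraries. It stood at log2 0.20 ± 0.12 (SE, adjusted p = 0.132), and it passed as higher, at log2 0.29, without vehicle replicate 5 and, at log2 0.42 (adjusted p = 0.00684), in the first set alone, while in the second it stood at log2 -0.09. Zfp708 (chr13:67069399-67097976), which binds a class of retroviral elements, had 3.41, 4.904 and 6.73 CPM in PM libraries, against 6.02, 5.43, 5.69, 6.702 and 5.93 CPM in vehicle libraries. It stood at log2 -0.23 ± 0.16 (SE, adjusted p = 0.233), and the whole of its transcript is shared with the gene Gm28557, whose exons overlap its own. Zfp708 was lower in the second set alone, at log2 -0.67 (adjusted p = 0.00977), and did not pass in the first, at log2 0.09.

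Per length of annotated transcript, Zfp706 had the highest level of the block. It reached 52.6 CPM per kb in PM and 38.03 CPM per kb in vehicle hippocampus, followed on the mean over all libraries by Zfp771 (30.9 in PM and 12.6 in vehicle), Zfp871 (9.31 and 26.96), Zfp869 (18.2 and 14.3) and Zfp950 (10.3 and 18.3). The order changed with the group, since Zfp871 ranked 2 of the 92 tested genes in vehicle libraries and 11 in PM libraries. The median over the 92 tested genes was 4.29 CPM per kb in PM and 4.05 CPM per kb in vehicle libraries, against 6.39 and 6.61 CPM per kb over all tested genes. Zfp869 had 26.7, 28.8 and 31.2 CPM in PM libraries, against 24.1, 22.8, 22.8, 23.05 and 21.2 CPM in vehicle libraries. The KRAB-type Zfp869 (chr8:69706332-69710724) was higher, at log2 0.35 ± 0.08 (SE, adjusted p = 0.00112), and its groups did not overlap. Zfp950 (chr19:61053840-61140840) was lower, at log2 -0.95 ± 0.14 (SE, adjusted p = 4.97e-05), with no overlap, and stood at log2 -0.24 (adjusted p = 0.175) with the trend removed. At the other end, Zfp735 had no count in any library, and Zfp819, Zfp872, Zfp936, Zfp947 and Zfp957 were too low to test. A total of 93 of the 98 genes had at least 1 count in every library.

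Within the first set 22 of the 92 genes were higher and 30 lower in PM (background 32.1% and 38.9%), with a median of -0.06, and within the second set 18 were higher and 35 lower (background 32.3% and 32.5%), with a median of -0.24. Both sets called 15 genes higher and 24 lower (background 23.1% and 26.2%). Another 12 genes were called in the first set alone (background 18.4%), 13 in the second alone (background 12.1%) and 27 in neither (background 16.8%). The effect itself differed between the sets in 19 genes, against 29.6% of all tested genes. On the log2 scale it was lower in the second set in 10 of them (background 12.1%) and higher in 9 (background 17.5%). That count rested on a few libraries, with 5 genes without vehicle replicate 5, 11 without vehicle replicate 4, 11 without PM replicate 2 and 12 without vehicle replicate 3.

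Zfp956 (chr6:47953390-47965300) had the largest difference between sets among the genes whose effect differed. It had 19.1, 16.96 and 16.1 CPM in PM and 11.2, 12.6 and 11.7 CPM in vehicle libraries of the first set, and 31.5, 37.3 and 31.3 CPM in PM and 11.3 and 10.1 CPM in vehicle libraries of the second. The rise was log2 0.56 in the first set, against 1.65 in the second, a difference of 1.09 ± 0.19 (SE, adjusted p = 6.93e-04). Zfp821, Zfp932 and Zfp940 likewise rose in both sets and more in the second, and Zfp827 and Zfp950 fell in both and less in the second. Zfp770 did the reverse. It had 28.6, 28.2 and 25.7 CPM in PM and 46.3, 44.3 and 46.99 CPM in vehicle libraries of the first set, and 15.4, 16.7 and 16.3 CPM in PM and 45.3 and 47.7 CPM in vehicle libraries of the second, log2 fold changes of -0.74 and -1.53 with a difference of -0.79 ± 0.14 (SE, adjusted p = 7.40e-04). Vehicle values of both genes lay close together in the sets, and the PM values were what moved. Zfp865, noted after its values were seen, was the only gene called in opposite directions, at log2 -0.61 in the first set, against 0.34 in the second (background 3.41%); 33.8% of its transcript is shared with Zfp784, which overlaps it on the opposite strand.

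**Figure D3:**
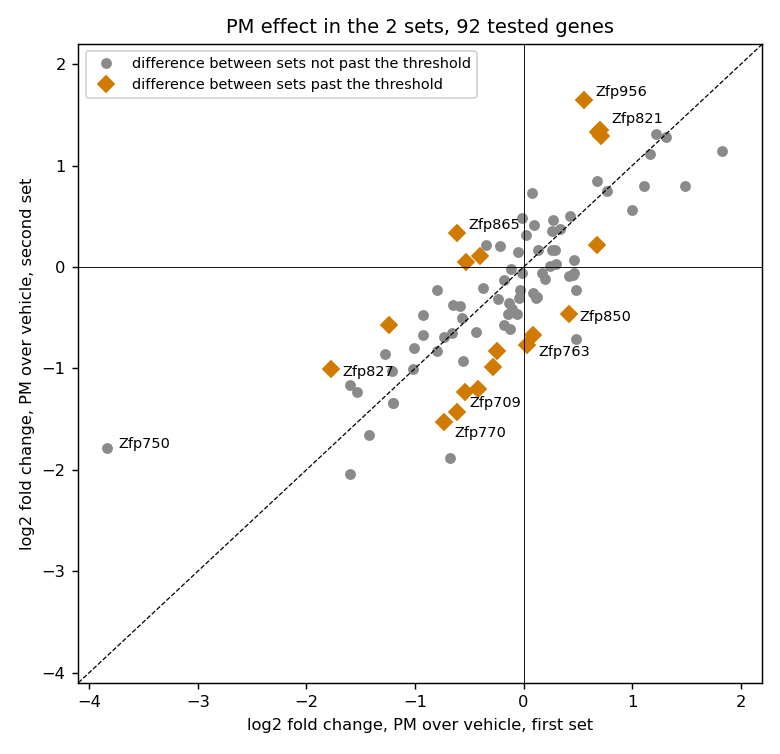
Log2 fold change of PM over vehicle in the first set (horizontal) against that of the second set (vertical) for the 92 tested zinc finger genes, with the dashed line of equal change. Orange diamonds mark the 19 genes whose effect differed between the sets; Zfp956 lies highest and Zfp750, at the far left, has a low level in all libraries.

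The log2 fold changes of the block went with transcript length and GC content, which is described here across genes. The background for the counts below was 36.4% lower and 32.7% higher over all tested genes. In the 31 longest of the 92 genes (3968 to 13834 bases) 21 genes were lower and 3 higher, with a median log2 fold change of -0.72, while in the 31 shortest (1484 to 2784 bases) 8 were lower and 8 higher, with a median of 0.15. By GC content, 9 were lower and 10 higher in the 31 genes of highest GC content (median 0.14), and 12 were lower and 3 higher in the 31 of lowest (median -0.23). Across the 92 genes Spearman's rho of the log2 fold change was -0.415 with transcript length and 0.281 with GC content, against -0.468 and 0.367 across 14847 genes. The difference between sets also went with GC content, with a rho of 0.362 across the 92 genes and 0.367 across all genes. These relations are across genes that share the same libraries, and genes are not independent replicates. With the trend removed, the median of the longest 31 was 0.17 and that of the shortest 0.09. The trend was fitted on these same counts, so a weaker relation with length is built into that step.

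**Figure D4:**
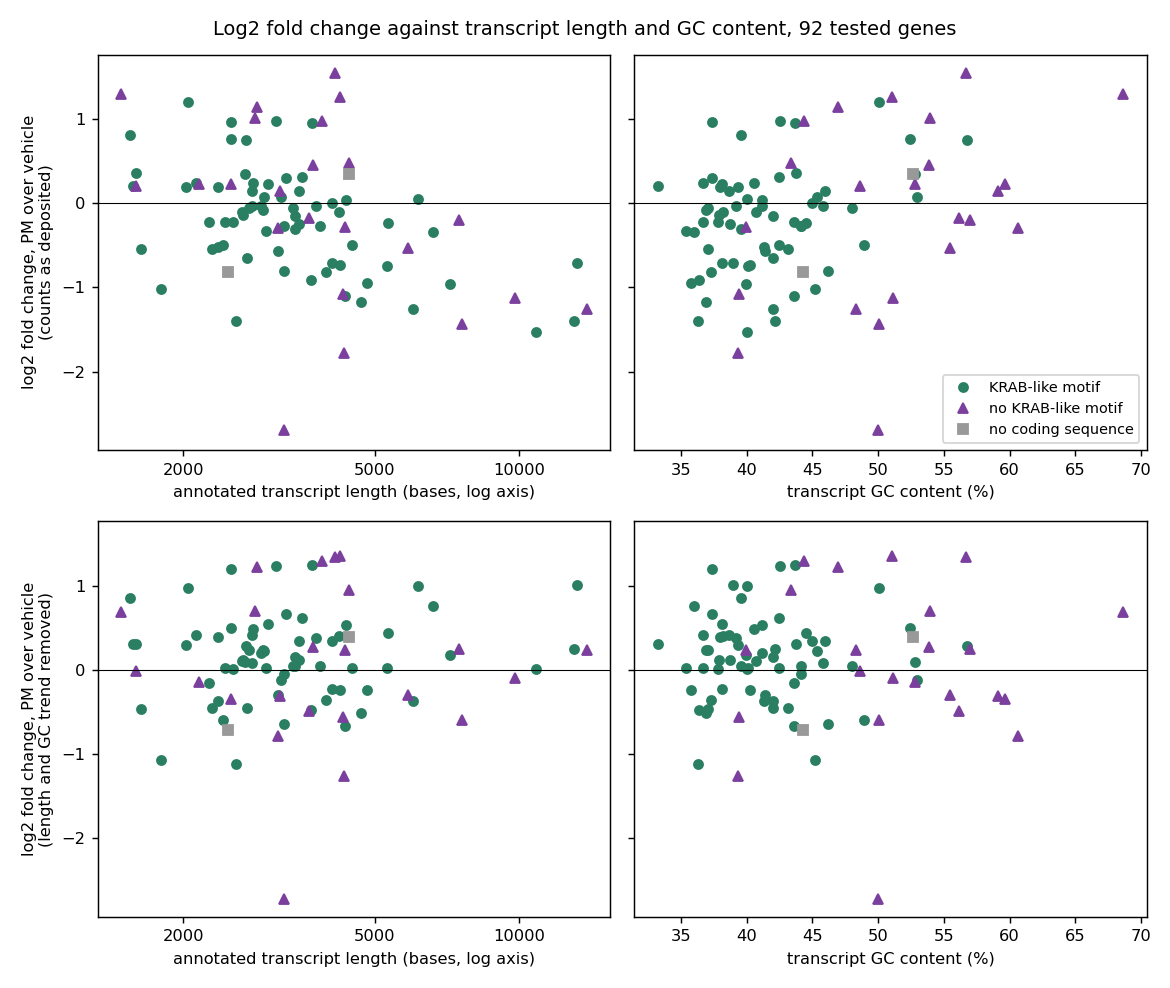
Log2 fold change of PM over vehicle against annotated transcript length (left, log axis) and transcript GC content (right) for the 92 tested zinc finger genes, with the counts as deposited in the upper panels and values after removal of the length and GC trend in the lower ones. Points are marked by KRAB-like motif. In the upper panels the longest transcripts lie mostly below 0, and in the lower ones the points spread on both sides of 0 at all lengths. The trend was fitted on these same counts, so a weaker relation is built into the lower panels.

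Genes with a KRAB-like motif and genes without one are set side by side here as counts, with no test of the difference. Genes without the motif may include some with a KRAB box that the search missed. The background was 32.7% called higher and 36.4% called lower over all tested genes. Of 67 tested KRAB-type genes 11 were higher (16.4%), 24 lower (35.8%, near the background) and 32 did not pass, with a median of -0.16. Of 23 tested genes without the motif 8 were higher (34.8%), 9 lower (39.1%) and 6 did not pass, with a median of 0.15. Effects above 2-fold were called in 7 lower and 1 higher KRAB-type genes, and in 6 lower and 5 higher genes without the motif. For all tested genes those shares were 17.1% lower and 11.6% higher. By number of fingers, genes with 12 or more had 3 higher (8.33%) and 17 lower (47.2%) of 36, with a median of -0.32. Those with 8 to 11 had 8 higher (24.2%) and 7 lower (21.2%) of 33, with a median of -0.03. Those with 0 to 7 had 8 higher (38.1%) and 9 lower (42.9%) of 21, with a median of 0.20. The genes with 12 or more fingers also had the lowest median GC content, 40.03% against 48.3% in those with 0 to 7. With the trend removed they had 13 higher and 7 lower (median 0.11), so the split turned with that step. The background of that fit was 35.5% higher and 28.6% lower.

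The 2 clusters with the lowest medians held no gene called higher. For all clusters the background was 36.4% called lower and 32.7% called higher over all tested genes. At chr8:71882019-71993792 all 3 genes of the block, Zfp709, Zfp882 and Zfp961, were lower, at log2 -0.96 ± 0.18 (SE, adjusted p = 2.87e-04), log2 -0.57 ± 0.14 (SE, adjusted p = 0.00288) and log2 -0.66 ± 0.10 (SE, adjusted p = 4.10e-05). Zfp709 had 4.08, 5.48 and 8.02 CPM in PM libraries, against 8.87, 13.4, 10.6, 12.9 and 11.9 CPM in vehicle libraries. Zfp961 had 12.8, 14.1 and 14.9 CPM in PM libraries, against 20.4, 25.9, 20.3, 22.9 and 20.4 CPM in vehicle libraries. The PM libraries lay below the vehicle libraries in all 3. Without the trend Zfp709 stood at log2 0.17 (adjusted p = 0.372), and in the first set alone Zfp882 did not pass, at log2 -0.28; with the trend removed Zfp882 stood at log2 -0.29. At chr13:67038596-67687071 4 of 6 genes were lower (Zfp712, Zfp738, Zfp748 and Zfp953), Zfp708 and Zfp759 did not pass, and all 6 were lower in the second set. Zfp748 had 7.21, 9.603 and 14.7 CPM in PM libraries, against 17.3, 17.6, 18.8, 16.5 and 18.4 CPM in vehicle libraries. Zfp712 was lower, at log2 -0.82 ± 0.15 (SE, adjusted p = 3.27e-04), Zfp748 at log2 -0.75 ± 0.15 (SE, adjusted p = 4.54e-04) and Zfp738 at log2 -0.71 ± 0.10 (SE, adjusted p = 3.34e-05). With the trend removed Zfp712 stood at log2 -0.35, Zfp748 stood at log2 0.02 (adjusted p = 0.913) and Zfp738, with a transcript of 13215 bases, was higher, at log2 1.01 (adjusted p = 4.16e-07).

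At chr7:127244274-127406822 3 of 4 genes were higher, Zfp771, Zfp764 and Zfp747, and Zfp768 did not pass at log2 0.22 ± 0.10 (SE, adjusted p = 0.0752). The rise of Zfp747 was log2 0.35 ± 0.14 (SE, adjusted p = 0.0397) with overlapping groups, it passed in neither set alone, and it was lost with the trend removed (log2 0.09), without the set term (log2 0.32) and when any of vehicle replicates 2 to 5 or PM replicates 1, 3 and 4 was left out. Zfp768 passed as higher without PM replicate 6, at log2 0.30, and without the filter on low counts, at log2 0.32, and was called lower, at log2 -0.35 (adjusted p = 0.0292), with the trend removed. At chr6:47819266-48623227 Zfp775 and Zfp956 were higher and 4 genes did not pass, among them the pseudogene Zfp783, at log2 0.35 ± 0.16 (SE, adjusted p = 0.0725), which passed with the trend removed (log2 0.39), with RLE size factors, with DESeq2, without the filter on low counts and when vehicle replicate 1 or PM replicate 3 or 6 was left out. In the second set alone Zfp783 was higher, at log2 0.73 (adjusted p = 0.00699), and in the first it stood at log2 0.08 (adjusted p = 0.714). At chr7:6131491-7209998 Zfp787 and Zfp954 were higher and the other 2 genes did not pass. At chr10:81901911-82241280 and chr13:62129886-62571199 2 of 3 genes were lower, and at chr9:22188090-22307648 and chr7:43114229-43618285 1 of 2 tested genes was lower, with none called higher in these 4 clusters.

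Other clusters were mixed. At chr17:32765496-33033402 Zfp871 and Zfp799 were lower while Zfp952 was higher, and Zfp811, which lies between Zfp871 and Zfp799, was higher, at log2 0.31 ± 0.11 (SE, adjusted p = 0.0206), with overlapping groups and a call that was lost without vehicle replicate 3 or 4 and in each set alone; with the trend removed it stood at log2 0.61. At chr8:69209038-69791178 Zfp866, Zfp963 and Zfp964 were lower and Zfp869 was higher. Zfp866 had 22.6, 23.8 and 27.05 CPM in PM libraries, against 40.3, 43.99, 45.5, 43.6 and 40.99 CPM in vehicle libraries. Zfp866, which shares 10.3% of its transcript with Gm20422, was lower, at log2 -0.81 ± 0.08 (SE, adjusted p = 8.66e-07) with no overlap. Zfp963, with 38.0% shared with the same gene, was lower, at log2 -0.55 ± 0.16 (SE, adjusted p = 0.00788) with overlap, and did not pass in the second set, at log2 -0.22. The largest cluster, at chr17:21567008-22867134, held 10 KRAB-type genes, of which 9 were tested, and in none of the 9 did the groups separate. Zfp942 was higher, at log2 0.30 ± 0.11 (SE, adjusted p = 0.025), Zfp758 lower, at log2 -0.33 ± 0.11 (SE, adjusted p = 0.0206) and Zfp945 lower, at log2 -0.35 ± 0.14 (SE, adjusted p = 0.0345), and Zfp820 did not pass at log2 -0.91 ± 0.40 (SE, adjusted p = 0.0564). Each of these 3 calls was lost in 1 of the sets and without some libraries, that of Zfp945 also with RLE size factors and with DESeq2, that of Zfp758 also without the set term, and those of Zfp758 and Zfp945 without the filter on low counts. Zfp942 no longer passed without vehicle replicate 1, 2 or 3 or PM replicate 2 or 3, Zfp758 without vehicle replicate 4 or 5 or PM replicate 6, and Zfp945 without vehicle replicate 2 or 5 or PM replicate 1, 4 or 6. With the trend removed Zfp942 stood at log2 0.66 and Zfp758 did not pass, at log2 0.02, and Zfp945 was called higher, at log2 0.75 (adjusted p = 2.74e-04).

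**Figure D5:**
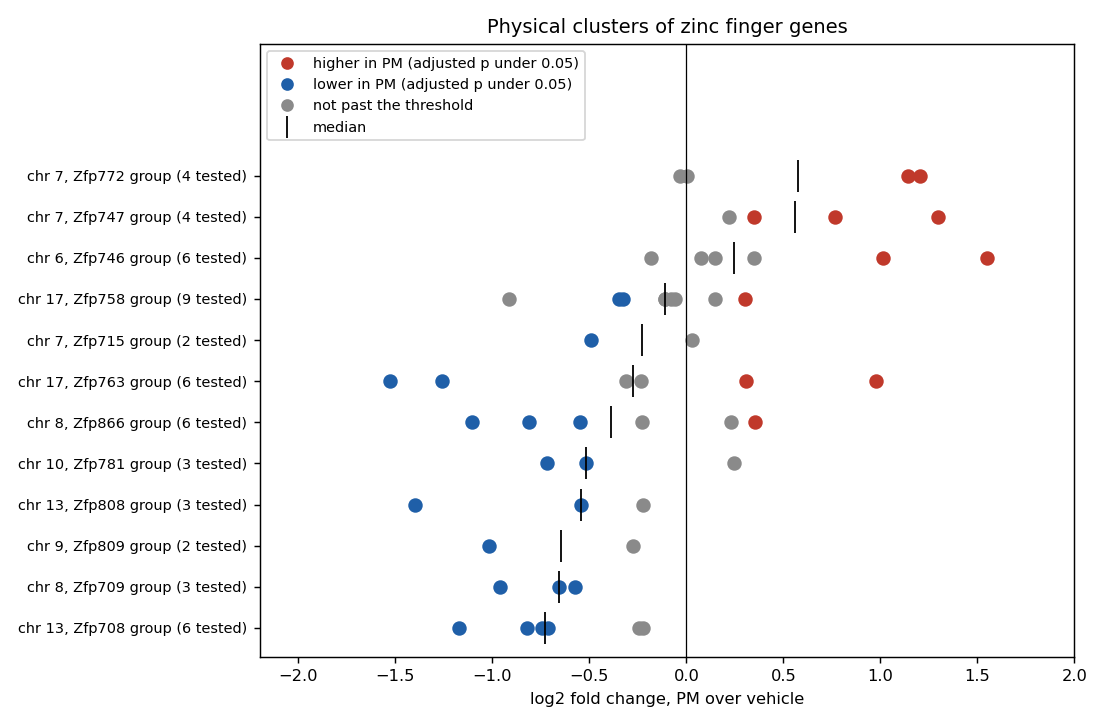
Log2 fold change of PM over vehicle for the tested zinc finger genes of the 12 physical clusters, 1 row per cluster ordered by its median (vertical line), with red for higher, blue for lower and grey for not past an adjusted p of 0.05. The chromosome 8 group of Zfp709, the chromosome 13 groups of Zfp708 and of Zfp808 and the chromosome 9 group of Zfp809 lie wholly below 0. The chromosome 7 group of Zfp747 lies wholly above 0.

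The partners through which KRAB proteins repress their targets also moved in both directions. On a list of 21 tested genes named as co-repressors, 5 were higher (Hdac2, Cbx3, Hdac1, Chd3 and Trim28) and 9 lower. The background was 32.7% and 36.4%, and 7 genes did not pass. That list also holds the zinc finger genes Zfp57 and Zkscan17, which are not partners of this kind. Zfp57 was among the 9 lower, at log2 -0.84 (adjusted p = 0.00901), and is also counted among the rows with other Zfp symbols. Its fall did not pass in the second set, at log2 -0.055, and Zkscan17 did not pass. Trim28, the shared scaffold of the KRAB family, had 97, 125 and 139 CPM in PM libraries, against 103, 103, 109.5, 99.4 and 94.7 CPM in vehicle libraries. The groups overlapped, the difference was log2 0.23 ± 0.10 (SE, adjusted p = 0.0466), it did not pass in the first set (log2 0.03) and it was lost without vehicle replicate 1, 2, 4 or 5 or PM replicate 1, 4 or 5. With the trend removed Trim28 was lower, at log2 -0.24 (adjusted p = 0.00236). Atf7ip had 20.99, 30.03 and 33.1 CPM in PM libraries, against 168, 147, 163, 155 and 156 CPM in vehicle libraries. Atf7ip, which stabilises SETDB1 in the nucleus, was lower, at log2 -2.49 ± 0.10 (SE, adjusted p = 1.22e-09), and at log2 -1.46 with the trend removed, a move of over 1.5 times. Setdb1 itself did not pass, at log2 -0.37 ± 0.17 (SE, adjusted p = 0.0673). It did pass, as lower, in the first set, at log2 -0.78, and without vehicle replicate 4 or 5 or PM replicate 5. Fam208a (TASOR), a subunit of the HUSH silencing complex, averaged 45.1 ± 3.97 CPM in PM libraries (SD, n = 6) and 129.97 ± 12.3 CPM in vehicle libraries (SD, n = 5). Pphln1 (periphilin), another HUSH subunit, averaged 38.6 ± 2.98 CPM in PM libraries (SD, n = 6) and 68.8 ± 6.196 CPM in vehicle libraries (SD, n = 5). They were lower, at log2 -1.53 ± 0.09 (SE, adjusted p = 8.79e-09) and log2 -0.83 ± 0.09 (SE, adjusted p = 1.47e-06), and Smarcad1, a chromatin remodeller that binds TRIM28, at log2 -1.20 ± 0.08 (SE, adjusted p = 4.04e-08). The histone deacetylase genes Hdac2 and Hdac1, the HP1 gene Cbx3 and the NuRD remodeller gene Chd3 were higher, at log2 0.71, 0.47, 0.82 and 0.41. Their relatives did not follow: the HP1 gene Cbx5 was lower, at log2 -1.21 (adjusted p = 1.65e-06), and stood at log2 0.09 (adjusted p = 0.501) with the trend removed, and the HP1 gene Cbx1 did not pass. The NuRD remodeller gene Chd4 was lower, at log2 -0.29 (adjusted p = 0.0264), and higher, at log2 0.23 (adjusted p = 0.00832), with the trend removed. Cbx5, Cbx1 and Chd4 belong to the list and its counts, and they were picked for naming here after their values were seen. With the trend removed Fam208a stood at log2 -0.33, Pphln1 at log2 -0.55, Smarcad1 at log2 -0.48, Hdac1 at log2 0.24 and Chd3 at log2 0.85, all still past the threshold in the same direction. Among the 21 genes of the list the effect differed between sets in 10, Zfp57 and Zkscan17 included, against 29.6% of all tested genes.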

How the data were processed

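RNA from 11 hippocampal libraries (6 PM, 5 vehicle) was measured as 1 count per gene symbol and library. The deposited counts are raw; per the submitters' processing notes the tools were FastQC 0.11.9, Trimmomatic 0.36, STAR, SAMtools 1.9, Picard 2.9.2 and HTSeq 0.9.1, with builds mm10 and hg19 named. Removal of ribosomal RNA is given per the labels' protocols, while the labels' molecule field names polyA RNA. Summary lines such as no feature stayed out of library sizes and tests; their shares stand in the report. No replicate libraries agreed within sampling noise (lowest chi-square per degree of freedom 2.01), so none was merged.

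The analysis used edgeR 4.0.16 (R 4.3.3): filterByExpr with a minimum count of 10 (14982 genes), TMM, robust quasi-likelihood test of group with set as covariate, two-sided, Benjamini-Hochberg over all tested genes, threshold 0.05. A joint fit of group by set gave the effects within sets and their difference. SE was computed as the absolute log2 fold change over the root of the F statistic. The trend-removed fit used per-library splines (5 degrees of freedom each) on the length and GC content of each gene's longest annotated transcript. DESeq2 1.42.0 and other settings are alternatives. Lengths, positions and coding sequences came from GENCODE M21, which matched 98.4% of symbols; no protein table was at hand, so identity between proteins was not computed. Steps were tested on simulated data.

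Named genes are the 12 largest rises and 12 largest falls (past the threshold, mean of at least 1 CPM, same sign in both sets), the members with a textbook role, the members of smallest p (4 at most) in each cluster described with values, the 5 of highest level per length, and the 4 co-repressor genes of smallest p in each direction; Trim28 and Setdb1, the other genes called or counted by name, and which clusters are described were chosen after values were seen. The members and lists were chosen with earlier results of these data known. Counting intervals and limits cover counting error only. One gene of a marker list is not reported here.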

Additional observations from a re-analysis of the deposited data

Results flagged for a closer look

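In 14 of the named genes the PM effect differed between the 2 sets by the test of the difference itself (edgeR, adjusted p under 0.05). On the log2 scale, second set minus first, the effect was lower in the second set for Zfp706 (-0.46), Zfp708 (-0.76), Zfp709 (-0.82), Zfp712 (-0.69), Zfp748 (-0.78), Zfp770 (-0.79) and Zfp882 (-0.70). It was higher in the second set for Zfp746 (0.51), Zfp821 (0.64), Zfp827 (0.77), Zfp932 (0.58), Zfp940 (0.64), Zfp950 (0.66) and Zfp956 (1.09). Of the 19 genes of the whole block with such a difference, 8 of 10 with a lower effect and 4 of 9 with a higher effect in the second set carried a KRAB-like motif. Of the 92 tested genes of the block, 67 carried it. Rn45s took 12.4% to 17.04% of gene counts in PM libraries of the first set and 4.01% to 8.14% in those of the second, and its part in these differences was not tested.

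In 7 of 100 groups of libraries looked at, 1 library stood apart from the rest of its group by Dixon's criterion, which chance meets in about 1 of 20 groups. Among PM libraries these were replicate 3 for Zfp771 (50.9 CPM, against at most 45.9 CPM in the others) and replicate 6 for Zfp811 (16.1 CPM, against at most 13.3 CPM). Among vehicle libraries replicate 5 was low for Zfp712 (9.78 CPM), Zfp831 (86.0 CPM) and Zfp846 (25.4 CPM), replicate 3 was high for Zfp800 (35.7 CPM) and replicate 1 was low for Zfp963 (6.02 CPM). The calls for these 7 genes passed also without the library named.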

How the results depend on the processing

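The counts of 19 higher and 34 lower genes were 17 to 21 and 31 to 35 when each library was left out in turn, with medians from -0.16 to -0.10. In all these fits 16 of the 19 and 29 of the 34 passed. How many of all tested genes passed each time was not counted. Removing the length and GC trend gave 35 higher, 22 lower and a median of 0.12, for a cause that was not tested. On the list of 21 co-repressor and zinc finger genes that step gave 8 higher and 6 lower. There Zfp704 (0.23), Zfp711 (0.24), Zfp738 (1.01) and Zfp945 (0.75) turned to higher and Zfp768 (-0.35) and Trim28 (-0.24) to lower past the threshold, and Zfp708 (0.015), Zfp709 (0.17), Zfp748 (0.017), Zfp758 (0.016), Zfp830 (-0.021), Zfp846 (0.25), Zfp871 (0.0089) and Setdb1 (0.23) changed sign without passing. Zfp708 changed sign in the first set alone (0.089), and Zfp746 (0.11), Zfp830 (-0.087) and Setdb1 (0.16) in the second. Genes whose effect differed between sets numbered 5 to 28 over the libraries left out, and 18 with the trend removed.

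Without a filter on low counts 24 genes were higher and 30 lower, with RLE size factors 20 and 32, with DESeq2 20 and 31, and without the set term 18 and 33. With the replicate number as a block 16 were higher and 30 lower, with a median of -0.14. Same-numbered PM and vehicle libraries did not deviate together (correlations from -0.18 to -0.01 over 5 numbers, none matching its own number best). Each deviation was taken from a mean of only 2 or 3 libraries, so this check cannot decide whether the numbers pair the samples. Among 59 single results, 8 lost their call under that block: Zfp703 (-0.29), Zfp711 (-0.26), Zfp747 (0.32), Zfp758 (-0.34), Zfp811 (0.27), Zfp942 (0.30), Zfp945 (-0.30) and Trim28 (0.22). Depth limits the genes near 1 CPM, and libraries of the 2 groups differ in composition, which the design cannot tell apart from exposure.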

Other observations

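Zfp947, a KRAB-type gene of the chromosome 17 cluster, had too few counts for the test and was noted after its values were seen. It had 86 counts over the PM libraries and 25 over the vehicle libraries. Its level was 0.7902, 1.596, 1.22, 0.371, 1.02 and 0.885 CPM in PM replicates 1 to 6 and 0.554, 0.634, 0.542, 0.163 and 0.4395 CPM in vehicle replicates 1 to 5. PM replicate 4 lay among the vehicle libraries and the other PM libraries above them.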
